A study of Mus musculus with 9 samples.

Results

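The genes of the cytosolic ribosomal proteins, which with ribosomal RNA make up the ribosome, were taken from the RNA table by symbol: every row named Rpl or Rps followed by a number (with the stalk proteins Rplp), or Rpsa, without the S6 kinases. The rule found 82 of 22942 rows, none of them at 0 in both groups. By name, 42 encode core proteins of the large subunit and 30 of the small subunit, 8 are paralogs, and 1 is a pseudogene copy (Rps19-ps3). The remaining row, Rps19bp1, encodes a protein that binds Rps19 and is not a ribosomal protein. RefSeq annotates 2 of the 82 as transcribed pseudogenes, among them Rps4y2, counted here as a paralog. Of the core genes listed by name, Rpl13a, Rpl26, Rpl30, Rpl34 and Rps27 were not analysed here.

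The cells were mononuclear cells from the bone marrow of B6.SJL (CD45.1) mice. The MLL-AF9 group had been transduced with the retroviruses MSCVneo-MLL-AF9 and MSCVpuro, and the control group with empty MSCVneo and MSCVpuro. MLL-AF9 joins the histone methyltransferase MLL to AF9 and is found in leukemia; here it was expressed from the retroviral vector. There were 3 polyA RNA libraries per group, but the deposited table holds 1 pooled value per gene and group, in FPKM (a level scaled by transcript length and by library size). No spread between libraries can therefore stand beside a value, the depth is unknown, and the p-values and q-values below come from the authors' deposited table.

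Each ribosome carries nearly all of its proteins in equal copy, and cells make the proteins in balance, degrading what is not assembled. The mRNAs are among the most abundant in dividing cells. Most begin with a terminal oligopyrimidine (TOP) tract, a C followed by a stretch of C and T, through which mTORC1 and LARP1 control their translation. In humans, loss of 1 copy of several of these genes causes Diamond-Blackfan anaemia, a failure of red cell production in the marrow.

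To show what the promoters have in common, the bases around the annotated start of transcription were read from RefSeq (build GRCm38.p6). A window from 250 bases before to 50 bases after the start was given for 60 of the 82 genes. An unbroken run of at least 8 C or T bases, on the strand of the gene and within 15 bases of the start, was found for 24 of the 60 genes (40.0%), and for 13.9% of all 27025 genes with a window. The 5 core genes with the longest runs on the chromosomes searched are shown, 5′ to 3′, with the run in capitals. Each is given from 15 bases before to 15 after the start. Not every chromosome was searched for this choice, so longer runs may exist.
Rpl7a, chr2:26910792-26910821, plus strand: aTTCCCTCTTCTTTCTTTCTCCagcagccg
Rpl27a, chr7:109519180-109519209, plus strand: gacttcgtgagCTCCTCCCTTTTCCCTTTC
Rpl35, chr2:39005117-39005146, minus strand: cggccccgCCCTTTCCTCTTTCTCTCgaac
Rpl15, chr14:18270972-18271001, minus strand: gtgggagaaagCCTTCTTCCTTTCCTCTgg
Rpl14, chr9:120571502-120571531, plus strand: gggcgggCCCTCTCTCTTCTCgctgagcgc

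The core of the ETS factor motif, CCGGAAG on either strand, was present in the window of 23 of the 60 genes (38.3%), and of 9.93% of all genes with a window. On the reverse strand it reads CTTCCGG, whose first 5 bases can lie inside a C and T run, and 13 of the 60 genes held both features. The YY1 core GCCATCTT, on either strand, was in 4 of the 60 (6.67%, against 3.19% of all genes), and TATAAA, on either strand, in 7 (11.7%, against 15.7%). The 100 bases upstream of Rps10 (chr17:27635245-27635344, minus strand) and Rpl15 (chr14:18270987-18271086, minus strand) are printed, with the ETS core in capitals. Both genes held it within 100 bases of the start. Among such core genes on the chromosomes searched, they had the longest C and T runs, and not every chromosome was searched.
Rps10: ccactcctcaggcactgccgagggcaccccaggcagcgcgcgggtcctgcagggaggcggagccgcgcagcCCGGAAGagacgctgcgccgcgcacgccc
Rpl15: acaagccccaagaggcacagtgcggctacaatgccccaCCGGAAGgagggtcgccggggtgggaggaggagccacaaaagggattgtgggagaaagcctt

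Every core ribosomal protein gene in the table was listed at a higher level in MLL-AF9 cells, by 1.23-fold to 2.02-fold in FPKM, and none of the 72 passed the authors' test. A gene was counted as called where its q-value was under 0.05 and the mean of the groups at least 1 FPKM, which 80 of the 82 rows reached (Rpl10l and Rpl39l did not). Of these 80, 0 were called higher, where 5.13% of 11538 genes were, and 1 was called lower, where 5.20% were: Rps4y2, a paralog of Rps4x. At an unadjusted p under 0.05 in the authors' deposited table there were 0 of the 72 core genes, and Rps4y2 alone of the 80, where 19.8% of all genes reached it. The core genes had p-values between 0.118 and 0.645 and q-values between 0.393 and 0.847 in the authors' deposited table.

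The differences were alike in size across the family. On the log2(FPKM + 1) scale, used for all log2 changes here, the median change of the 80 genes was 0.67, with an interquartile range of 0.55 to 0.75. The median over all 11538 genes was 0.29, so the family lay 0.37 above it, and the interquartile range of all genes was 0.79 wide where that of the 72 core genes was 0.21 wide. A higher value in MLL-AF9 cells was listed for 79 of the 80 rows and for 68.7% of all genes. All 72 core genes had a change above the median of all genes, and a ratio of at least 1.5 was seen for 49 of them and for 33.5% of all genes. The genes share the same libraries and scaling, so they are not independent observations of a change. In bulk RNA, a different mix of cells and a different level per cell cannot be told apart.

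**Figure D1:**
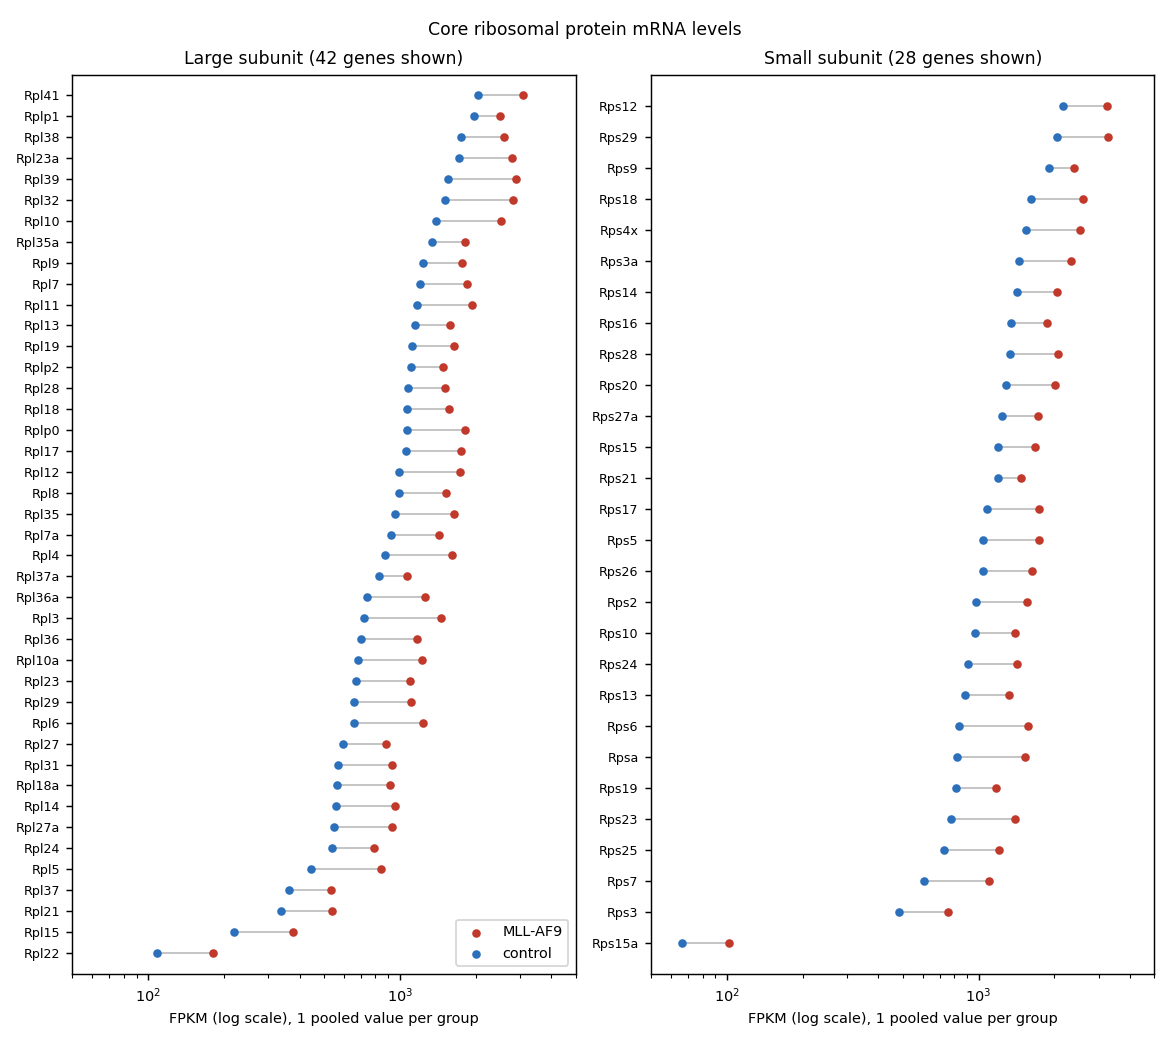
FPKM (log axis) of the 42 large-subunit genes and 28 of the 30 small-subunit genes, ordered by the control value, with 1 point for the pooled MLL-AF9 value (red) and 1 for the pooled control value (blue) and a line joining them. The MLL-AF9 point lies to the right of the control point for all 70 genes plotted, and Rpl22 and Rps15a lie far below the rest in both groups.

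The family made up 15.2% of the summed FPKM of MLL-AF9 cells and 8.84% of that of control cells. Both sums hold rows that are no measure of ribosomal protein genes: S100a8, a granulocyte protein, alone took 2.08% in MLL-AF9 and 15.4% in control cells, and 615 rows of small RNAs took 15.9% and 9.27%. S100a9 was listed at 0 in control cells with p = 1 in the authors' deposited table. Without the small RNA rows, S100a8 and S100a9, the family's share was 18.8% in the MLL-AF9 group and 11.7% in control cells. The ratio was 1.61. Other granulocyte genes remain in both sums. Among them are 5 late granulocyte markers, summed at 4880.1 FPKM in the MLL-AF9 group and 54861 FPKM in control cells.

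Markers of other cells moved in the same comparison. All 5 late granulocyte markers (Ltf, Camp, Ngp, Mmp8 and Retnlg) were called lower, where 5.20% of all genes were. Their summed level was 4880.1 FPKM in the MLL-AF9 group and 54861 FPKM in control cells. All 4 B lymphoid markers (32.9 against 573 FPKM), all 3 T and NK markers (1.2005 against 29.0 FPKM) and all 4 erythroid markers (10.7 against 206 FPKM) were called lower, and none stood at 0 in either group. Of 3 monocyte and macrophage markers 1 was called lower (summed 204 against 189 FPKM). The lowest value among the 3 was 1.52 FPKM in the MLL-AF9 group and 20.1 FPKM in control cells, so they did not move alike. Of the listed pan-leukocyte and myeloid genes, Spi1 was not analysed here. The others, Ptprc, Mpo and Elane, summed at 2257 against 2088 FPKM, were not called. Their lowest value was 142 FPKM in the MLL-AF9 group and 257 FPKM in control cells, so their sum does not describe each gene. The part of these cells in the ribosomal protein differences was not tested.

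The calls among other abundant genes give a measure of what passed at these levels. Among 152 rows outside the family with a mean of at least 500 FPKM, a limit chosen after the values were seen, 23 were called. The called rows went in both directions, and their smallest absolute log2 change was 1.12, that of the cold-shock RNA-binding protein gene Rbm3. It was at 1057 FPKM in the MLL-AF9 group and 486 FPKM in control cells (q = 0.0316 in the authors' deposited table). No core ribosomal protein gene had a change of 1.12, and Rpl3 came nearest at 1.01. A change of this size did not always pass. Eef1a1, with a mean of 5514 FPKM, had a log2 change of 1.22 and was not called (q = 0.756 in the authors' deposited table). Of the 92 such rows that carry a gene name and are neither small RNAs nor ribosomal protein genes outside the symbol rule, 34 were listed higher and 58 lower in MLL-AF9 cells, with a median change of -0.46.

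**Figure D2:**
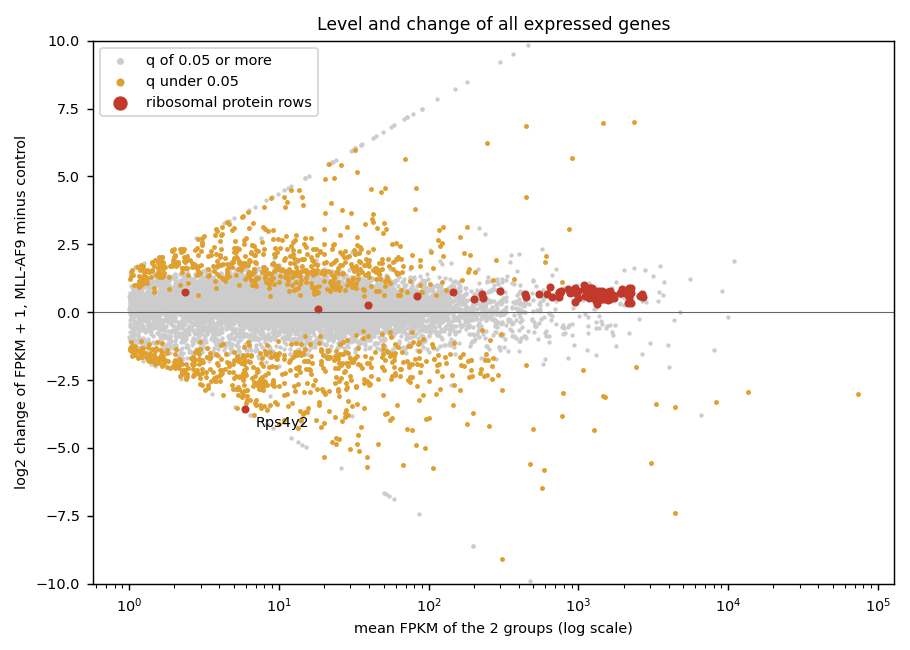
Mean FPKM of both groups (log axis) against the log2 change, MLL-AF9 minus control, for 11538 genes, with genes of q under 0.05 in orange, others in grey and the ribosomal protein rows in red. The core genes form a tight band above 0 at the right, between 0.30 and 1.01, Rps4y2 stands apart at -3.58, and 3 genes lie outside the vertical range.

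The proteins of the large subunit form the peptidyl transferase side of the ribosome and the exit tunnel. Their 42 genes had a median log2 change of 0.71, and the lowest of them was Rplp1 at 0.34. Rpl3, a core protein next to the peptidyl transferase centre, had the largest ratio of the core genes, at 1454 FPKM in the MLL-AF9 group and 720.5 FPKM in control cells (2.02-fold, q = 0.470 in the authors' deposited table). Rpl5 and Rpl11 form a particle with the small ribosomal RNA of the large subunit and, when free, bind Mdm2, the ubiquitin ligase of p53. Rpl5 stood at 842 FPKM in the MLL-AF9 group and 444 FPKM in control cells (1.90-fold), and Rpl11 at 1937 against 1168 FPKM (1.66-fold). Both were listed higher, without passing.

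The stalk proteins, which recruit the translational GTPases, had ratios from 1.27 to 1.71. Rplp0, the base of the stalk, was at 1822 FPKM in the MLL-AF9 group and 1063 FPKM in control cells, 1.71-fold. Its partners were listed with smaller ratios: Rplp1 was at 2513 against 1979 FPKM (1.27-fold) and Rplp2 at 1489 against 1111 FPKM (1.34-fold). None was called. With 1 pooled value per gene and group and no spread, whether the ratios of the 3 differed from each other cannot be shown. Of 9 proteins that line or border the exit tunnel 8 were measured, with log2 changes from 0.55 for Rpl19 to 0.89 for Rpl39. Rpl39, a very small protein of the tunnel wall, stood at 2901 FPKM in the MLL-AF9 group and 1562 FPKM in control cells, and its q of 0.393 in the authors' deposited table was the lowest of the core.

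The small subunit decodes the mRNA, and its 30 genes had a median log2 change of 0.65. Rps6, the substrate of the S6 kinases, had the largest change among them, 0.91, at 1569 FPKM in the MLL-AF9 group and 836 FPKM in control cells. Rpsa, the laminin receptor homologue, was at 1532 against 819 FPKM (1.87-fold). Among the 5 largest changes of the family were also those of Rpl3, Rpl5 and the large-subunit protein gene Rpl6 (0.91, at 1237 against 660.0 FPKM). At the other end Rps21 was at 1469 against 1192 FPKM (1.23-fold) and Rps9, whose bacterial homologue binds ribosomal RNA early in assembly, at 2391 against 1907 FPKM (1.25-fold), the smallest ratios of the core. Rpl37a, a zinc-binding protein of the large subunit, was also among the 5 smallest core changes, at 1068 against 826 FPKM (1.29-fold). The 14 measured proteins of the small-subunit head, where the mRNA channel ends, had a median log2 change of 0.64. The difference between the subunit medians was not tested, since genes are not replicates.

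The levels kept their order between the groups. Over the 72 core genes the Spearman correlation of FPKM between MLL-AF9 and control cells was 0.96, a description over genes measured in the same libraries, and the largest move in rank was 19 places, that of Rps21. The highest levels in MLL-AF9 cells were those of Rps29 (3260 FPKM, against 2055 in control), Rps12 (3245 against 2175), Rpl41 (3089 against 2052), Rpl39 and Rpl32 (2823 against 1514). In control cells Rps12, Rps29, Rpl41, Rplp1 and Rps9 led. Although the proteins are needed in equal number, the highest core level was 32.1 times the lowest in MLL-AF9 and 32.8 times in control cells. Most genes lay closer together: 64 of 72 in MLL-AF9 and 62 of 72 in control cells were within 2-fold of the core median, which was 1568 FPKM in the MLL-AF9 group and 1016 FPKM in control cells.

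The lowest core gene in both groups was Rps15a, at 102 FPKM in the MLL-AF9 group and 66.3 FPKM in control cells, followed by Rpl22 at 181 against 109 FPKM and Rpl15 at 376 against 219 FPKM. Their ratios, 1.53, 1.66 and 1.71, lay inside the range of the other core genes. Levels of single genes are uncertain, since RefSeq names pseudogene copies for 58 of the 82 genes, up to 23 for 1 gene (Rpl31 and Rps12), and reads of 51 bases can match several copies. How the authors assigned such reads is not given in the sources used here. Rps19-ps3, a copy listed on its own, was at 271 FPKM in the MLL-AF9 group and 188 FPKM in control cells, a ratio of 1.44, and Rps19 at 1178 against 815 FPKM, a ratio of 1.45.

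Of 18 genes mutated in human Diamond-Blackfan anaemia and listed by name, 16 were measured. All 16 were listed higher in MLL-AF9 cells, as were 68.7% of all genes, and 0 were called in either direction, where 5.13% of all genes were called higher and 5.20% lower. Their median log2 change was 0.66, beside 0.68 for the 72 core genes, which include them. Rps19, the gene most often affected, had a change of 0.53 and Rps26 one of 0.65. Rps7 was at 1104 FPKM in the MLL-AF9 group and 610 FPKM in control cells (1.81-fold), and Rpl35a at 1817 against 1339 FPKM (1.36-fold), which were among the larger and the smaller ratios of this group. The 4 genes on the X chromosome (Rpl10, Rpl36a, Rpl39 and Rps4x) had log2 changes between 0.72 and 0.89. Rpl10, a late-joining protein of the large subunit, was at 2515 against 1392 FPKM (1.81-fold), and Rpl36a at 1259 against 740.4 FPKM (1.70-fold).

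The paralogs gave the one called difference. Rps4y2, the symbol of the table for a gene that RefSeq lists as Rps4l and annotates as a transcribed pseudogene, was at 0.0648 FPKM in the MLL-AF9 group and 11.7 FPKM in control cells, 181-fold lower, with a log2 change of -3.58 (q = 1.34e-05 in the authors' deposited table). By log2 change it was the gene in place 59 of the 600 called lower, and 22 of the 6543 genes with at least 10 FPKM in control cells were under 0.1 FPKM in MLL-AF9 cells. The X-linked Rps4x, whose sequence it resembles, was at 2542 FPKM in the MLL-AF9 group and 1540 FPKM in control cells (1.65-fold, not called). Rps4y2 thus held 0.00255% of the summed level of the pair in MLL-AF9 and 0.756% in control cells. At so small a share, reads that belong to Rps4x could change its value, and this was not tested. Markers of granulocytes, lymphocytes and red cells were lower in the same samples, as given above, and their part was not tested.

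Genes beside it on the chromosome, in the RefSeq order, were not listed lower. Tmtc1, the nearest neighbour with a row on one side, was at 0.193 FPKM in the MLL-AF9 group and 0.0501 FPKM in control cells, and Gm6313, the nearest on the other, at 1.09 against 0.801 FPKM. The next expressed protein-coding neighbours were Ergic2, a secretory pathway gene, at 24.2 against 16.3 FPKM, and Ipo8, a nuclear import receptor, at 11.8 against 7.30 FPKM. All 4 were listed higher in MLL-AF9 cells, as were 68.7% of all genes. Tmtc1 and Gm6313 lay under the mean needed for a call, so neither could be called. Ergic2 and Ipo8 were above it and were not called.

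The other paralogs ranged from levels near those of core genes to levels near 0. Rpl22l1, a paralog of Rpl22 that can take its place in the ribosome, was listed at 282 FPKM in the MLL-AF9 group and 175 FPKM in control cells, above Rpl22 in both groups. It made up 60.9% of the pair's summed level in MLL-AF9 and 61.7% in control cells. For Rpl36a and Rpl36al the paralog's share was 34.7% in MLL-AF9 and 36.4% in control cells. Rps27l, a p53-responsive paralog of Rps27, was at 235 against 167 FPKM (1.41-fold). Rpl7l1, a factor of ribosome assembly, was at 42.6 against 35.4 FPKM, a log2 change of 0.26 that was -0.033 after centring on the median of all genes. The muscle paralog Rpl3l stood at 3.21 FPKM in the MLL-AF9 group and 1.53 FPKM in control cells. The testis paralogs Rpl39l and Rpl10l were listed at 0 in MLL-AF9 and at 0.552 and 0.0623 FPKM in control cells, with p = 0.0371 and 0.0786 in the authors' deposited table, under the mean needed for a call. Rps19bp1, the binding protein, was at 19.2 against 17.4 FPKM, a log2 change of 0.13 that turned to -0.13 under quantile normalization, to -0.16 after centring and to -0.028 with upper-quartile scaling.

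**Figure D3:**
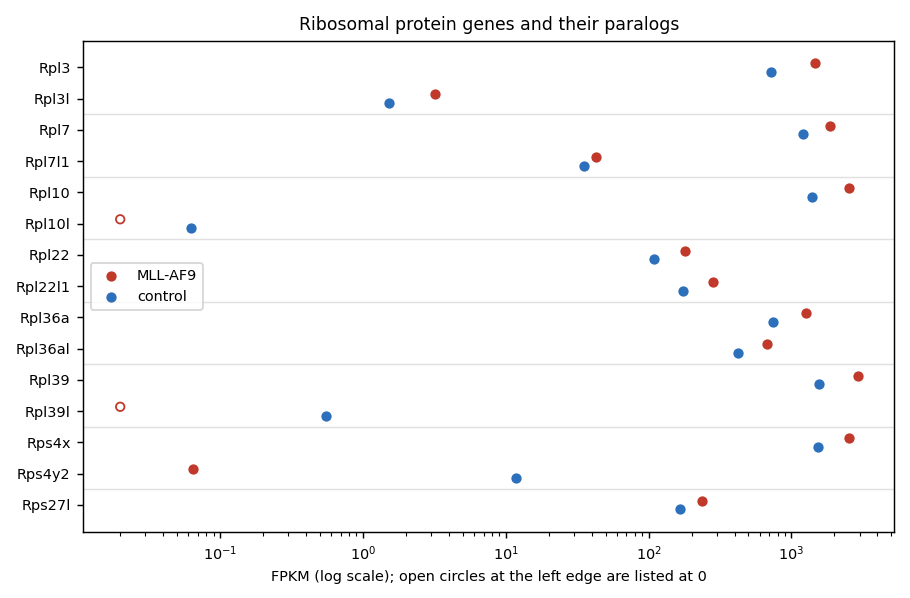
FPKM (log axis) of 7 ribosomal protein genes, each above its paralog, and of Rps27l, with the pooled MLL-AF9 value in red and the pooled control value in blue. Rps4y2 is the paralog whose MLL-AF9 point lies far left of its control point, and open circles mark Rpl10l and Rpl39l, listed at 0 in MLL-AF9 cells.

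Proteins that the symbol rule does not reach were taken from a list. Fau, a fusion whose tail is a small-subunit protein, was at 2221 FPKM in the MLL-AF9 group and 1828 FPKM in control cells (1.22-fold). Rps27a, a fusion with ubiquitin and a member by symbol, was at 1724 against 1239 FPKM (1.39-fold). Gnb2l1, which encodes the scaffold Rack1, was at 1348 against 763 FPKM (1.77-fold). None of these was called.

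Other genes of translation were set beside the family by their own values. Of 18 measured elongation factors and other genes with TOP mRNAs 0 were called, where 5.13% of all genes were called higher and 5.20% lower. The median log2 change of the 18, 0.73, lay next to that of the core. Fau and Gnb2l1 are on that list too. Eef1a1, the factor that delivers transfer RNAs, was at 7723 FPKM in the MLL-AF9 group and 3305 FPKM in control cells, and Tpt1, a growth-related TOP mRNA, at 4296 against 2577 FPKM. Of 51 rows with the initiation factor prefix Eif, 1 was called higher and 0 lower, where 5.13% and 5.20% of all genes were. Their median was 0.55. Not all are initiation factors, since rows named Eif2c, Eif2ak and Eif4ebp are among them. Eif3e, Eif3f, Eif3h, Eif3l and Eif4b are on the TOP list too. The called row was Eif2c3, an Argonaute gene named with this prefix and not an initiation factor, at 2.04 against 0.364 FPKM; its q in the authors' deposited table was 0.0272.

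The 74 mitochondrial ribosomal protein genes (Mrpl and Mrps) had a median log2 change of 0.27, near the 0.29 of all genes. None was called, where 5.13% of all genes were called higher and 5.20% lower. A higher value in MLL-AF9 cells was listed for 67 of the 74 (90.5%) and for 68.7% of all genes. The other 7 were listed lower. The median level of the 74 genes was 31.5 FPKM in the MLL-AF9 group and 24.7 FPKM in control cells. That of the 72 core cytosolic genes was 1568 FPKM in the MLL-AF9 group and 1016 FPKM in control cells. The difference between the medians of cytosolic and mitochondrial ribosomal protein genes was not tested. Of 13 measured genes for RNA polymerase I and the transcription of the small ribosomal RNA, 1 was called higher, Taf1d, a subunit of the polymerase I selectivity factor, at 70.7 against 31.6 FPKM, and 0 were called lower (median 0.46). In the authors' deposited table its q was 0.00970. Of 17 measured genes of mTORC1 and the S6 kinases, 0 were called higher and 1 lower (median 0.47): Mlst8, an mTOR subunit, at 16.9 against 36.9 FPKM. Its q was 0.00678 in the authors' deposited table. Larp1 was at 38.4 against 21.0 FPKM without passing.

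**Figure D4:**
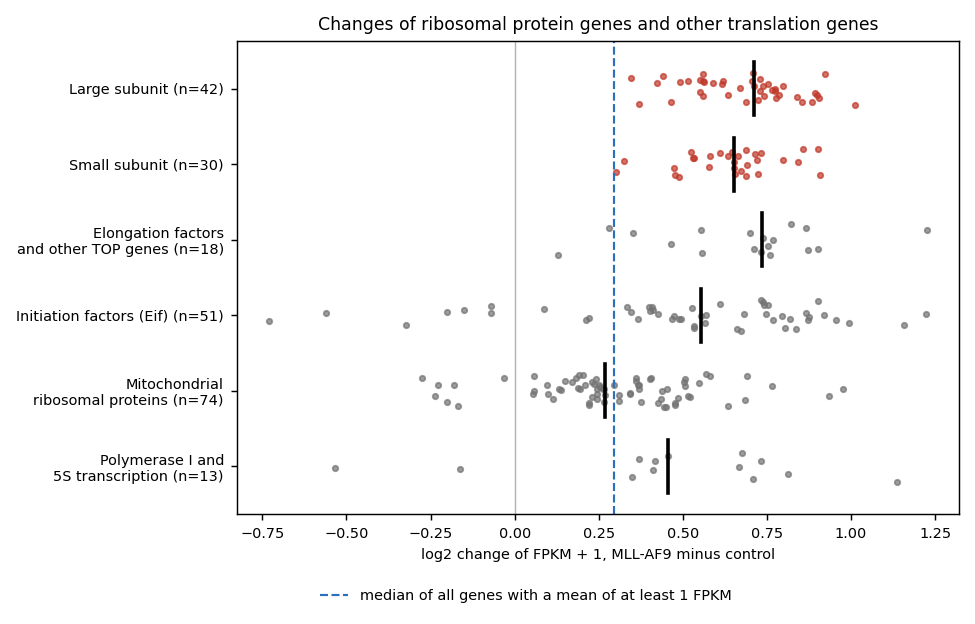
Log2 change of FPKM + 1, MLL-AF9 minus control, with 1 point per gene for the large and small subunit (red) and for other translation lists (grey), black bars at the medians and a dashed line at the median of all genes (0.29). The subunit genes lie between 0.30 and 1.01, to the right of the dashed line, and the mitochondrial ribosomal proteins are spread around it.

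Among 4 genes of the p53 pathway, which free Rpl5 and Rpl11 act on, 1 was called higher and 0 lower, where 5.13% and 5.20% of all genes were. Cdkn1a, the cell cycle inhibitor p21, was at 29.8 FPKM in the MLL-AF9 group and 6.13 FPKM in control cells (4.85-fold, q = 0.00329 in the authors' deposited table). Mdm4, a p53 inhibitor related to Mdm2, was at 46.5 against 21.2 FPKM (2.19-fold), with p = 0.0269 and q = 0.156 in the authors' deposited table, and did not pass. Trp53 was at 57.7 against 48.4 FPKM and Mdm2 at 34.4 against 36.4 FPKM, without passing.

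The changes were also set beside the promoter features. The median log2 change was 0.64 for the 24 genes with a C and T run and 0.67 for the 34 expressed genes with a window and no run. It was 0.70 for the 22 with the ETS core and 0.63 for the 36 without. For the YY1 core it was 0.52 for the 4 with a match and 0.66 for the 54 without, and for TATAAA it was 0.73 for the 7 with a match and 0.63 for the 51 without. These values are descriptions and were not tested. No match means only that the letters are not in the window; starts used in these cells were not measured.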

How the data were processed

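The authors' deposited RNA table gives 1 pooled value per gene and group, with a p-value and a q-value of their own comparison. Their test is not given in the sources used here. No unit is named in the header. The authors' deposited values were read as FPKM, from their size and range and because Cufflinks 1.3.0 is named per the submitters' processing notes beside TopHat 1.4.1, CASAVA 1.8.2 and mouse build mm9. Per the labels' protocols the RNA libraries were unstranded TruSeq v2 libraries read as single reads of 51 bp. The labels speak of duplicates, although 3 RNA samples per group are listed, and do not state whether these are separate animals or which of them were pooled. Values of a few single genes are not reported here. The 5hmC files and the input DNA library were not used here.

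No test was computed anew, since limma, planned for values per library, needs replicates. Log2 changes used a pseudocount of 1 FPKM, and calls a mean of at least 1 FPKM with q under 0.05. S100a9, listed at 0 in control with p = 1 in the authors' deposited table, was left out of the 11538 genes; whether that 0 is a failed estimate was not tested. Small RNA rows were those whose symbols begin with Mir, Snor, Scar, Rnu, Rn7, Rny, Rmrp, Rpph1, Terc or Vaultrc.

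Members and lists were chosen with earlier results of these data known. Named genes were the called members, the 5 largest and 5 smallest changes, the 5 highest levels, the paralogs, stalk, X-linked and Diamond-Blackfan genes, and up to 3 called genes per list; others were chosen after their values were seen. RefSeq (GRCm38.p6) matched 80 members by symbol and 2 through a synonym and was used for names, neighbours, hosted RNAs and promoter sequence. A check of the code added a known shift to shuffled log2 changes and read it back. Its outcome was fixed by construction, so it does not bear on the list results. Python 3.11.15, numpy 2.4.6, pandas 2.3.3 and matplotlib 3.10.9 were used.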

Additional observations from a re-analysis of the deposited data

How the results depend on the processing

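The median log2 change of the ribosomal protein genes was 0.67 and stayed positive under each setting run. It was 0.66 with a pseudocount of 5 FPKM, 0.66 without a filter on low values, 0.70 after rescaling without small RNA rows, S100a8 and S100a9, and 0.68 over the core list. It was 0.46 under quantile normalization, 0.37 after median centring and 0.50 with upper-quartile scaling, which was added after seeing the data. The median of all genes moved with these scalings, to 0.09 under quantile normalization and 0.14 with upper-quartile scaling, and the family lay between 0.35 and 0.57 above it over all settings. The share of all genes listed higher in MLL-AF9 cells was 68.7% as deposited, 56.1% under quantile normalization and 60.1% with upper-quartile scaling. Of the single members, Rps19bp1 changed sign under quantile normalization (-0.13), median centring (-0.16) and upper-quartile scaling (-0.028), and Rpl7l1 under median centring (-0.033). The other 78 expressed members kept their sign, except that Rps9 was at 0 under quantile normalization.

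The count of members called higher was 0 under all 5 alternatives, and that of members called lower was 1, except 0 over the core list, which does not hold Rps4y2. The members' share of the summed FPKM was 18.8% in MLL-AF9 and 11.7% in control cells without small RNA rows, S100a8 and S100a9, and 14.98% in MLL-AF9 and 8.72% in control cells for the core list. No replicate could be left out, because the table holds pooled values. No paired analysis was possible because the columns are pooled and the labels give the RNA samples no number that both groups share. The depth is unknown, so no interval or floor can be given.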

Other observations

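Several ribosomal protein genes carry small nucleolar RNAs (snoRNAs), guides of ribosomal RNA modification, inside their bodies, and these have rows of their own in the table. RefSeq places 55 snoRNA genes within members, 28 of which have a row, in 21 host genes. Of the 28, 3 were listed at 0 in both groups, 3 at 0 in control cells only, and 22 above 0 in both. Of the 22, 18 were listed higher and 4 lower in MLL-AF9 cells, with a median ratio of 1.70, where the hosts' own median ratio was 1.64. Other snoRNA rows above 0 in both groups gave 29 of 39 (74.4%) listed higher, with a median ratio of 1.75.

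In Rpl4, the host of Snord16a, the snoRNA was at 952 FPKM in the MLL-AF9 group and 191 FPKM in control cells. Against its host's direction, Snord4a in Rpl23a was at 143 against 345 FPKM. Snord42b in Rpl23a was at 6775 FPKM in MLL-AF9 and listed at 0 in control cells. None of the 28 passed, where 5.13% of all genes were called higher and 5.20% lower. The smallest q of the 28 was 0.205 in the authors' deposited table. An unadjusted p under 0.05 in that table was reached by 2 of the 28 and by 19.8% of all genes. The snoRNA rows at 0 in both groups, counted above, could not pass. FPKM of RNAs this short depends on few reads, the libraries keep no strand, and reads from unspliced host RNA were not separated from those of the snoRNAs.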
